A study of Mus musculus with 13 samples.

Results

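Fat tissue signals to other organs through secreted proteins called adipokines, and the genes examined here are 10 that belong to that system: the hormones Adipoq (adiponectin), Lep (leptin), Retn (resistin) and Cfd (adipsin, complement factor D), the receptors Lepr, Adipor1 and Adipor2, and the adipocyte genes Plin1, Fabp4 and Pparg. They were named by symbol and found on the array as the features whose only gene symbol is one of them. Of the 10 genes, 9 were measured, each by 1 feature, out of 30142 genes that have a feature with a single symbol. Cfd was not analysed here.

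The tissue was endometrium, the inner lining of the uterus, scraped with the back of a scalpel from opened uteri of 13 female C57BL/6 mice. Every mouse had lost its ovaries at 6 to 8 weeks of age, so that the ovarian source of estrogen was removed in all groups, and was then treated for 12 weeks. The MIX mice (n = 3) carried a 17-β estradiol pellet under the skin and ate a high-fat diet, the E2 mice (n = 4) carried the pellet and ate chow, the HD mice (n = 3) ate the high-fat diet without a pellet, and the CON mice (n = 3) ate chow without a pellet. Each mouse gave 1 RNA sample and 1 array, so the replicates are separate animals and the tests measure the spread between them.

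Adiponectin acts through the paired receptors Adipor1 and Adipor2, which raise AMP-activated kinase and ceramidase activity and are made in most tissues, while leptin acts through Lepr, a cytokine receptor that signals through Jak2 and Stat3. Adipoq, Lep, Cfd and, in mice, Retn are made mainly by adipocytes, whose formation the nuclear receptor Pparg drives. Plin1 coats the lipid droplet of adipocytes and Fabp4 carries fatty acids in adipocytes, macrophages and capillary endothelium. The uterus lies against fat of the abdomen and its ligaments, so a scraping can carry fat cells. The adipocyte genes can therefore also reflect how much fat came with a sample. In whole tissue like this, fewer cells of a type and less RNA per cell cannot be told apart.

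Values are log2 levels as the authors deposited them after RMA, where 1 unit is a doubling, and levels of different features are not compared with each other. As a mark of a dim feature, 1717 olfactory and vomeronasal receptor genes were used, whose mean levels had a median of 2.88 and a 95th percentile of 4.51. The general epithelial gene Krt8 lay between 10.9 and 11.6 in the 13 mice and the stromal gene Dcn between 10.8 and 12.1, both of which other epithelia and connective tissue express too. The score of mesothelial markers, named for the outer lining of the uterus, ran from 7.75 to 9.17. That list also holds Krt8 and Krt19, which are on the uterine epithelial list too, so its level is not particular to the outer lining. Array medians ran from 4.48 to 4.57 in MIX, 4.54 to 4.71 in E2, 4.64 to 4.69 in HD and 4.61 to 4.66 in CON. One mouse, CON replicate 3, stood apart in several of the genes described here, and the differences of the genes in which it stands apart are given with and without it. Its scores (mean log2 level of a gene list) were the lowest of the 13 mice for macrophage markers, at 6.20, and for mesothelial, squamous epithelial, lymphocyte and blood markers, the alternative complement pathway and the other adipokines. They were the highest for smooth muscle markers, at 6.78, for adipocyte markers and for adiponectin and leptin signalling. Several of these ranks were narrow. The next highest mouse had 6.76 for smooth muscle markers, 7.366 against 7.370 for adiponectin signalling and 7.82 against 7.84 for leptin signalling. For macrophage markers the next lowest mouse, CON replicate 2, had 6.27, and the blood score holds only 2 genes.

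None of the 9 measured genes passed an adjusted p under 0.05 in limma in any of 8 comparisons between the groups. Over the 72 tests, 12 reached an unadjusted p under 0.05, of which 5 were in MIX with CON, 3 in MIX with HD, 3 in the pellet difference averaged over the diets and 1 in the diet difference averaged over pellet states. Of all 65929 features, 5498, 4649, 6584 and 2217 did so in those comparisons. The smallest adjusted p was 0.378, for Plin1 in the pellet difference. Few features of the whole array passed either. The share called was 0.00303% of 65929 features in MIX with CON (2 features), 0.00455% in MIX with HD (3 features), 0.0167% in the averaged pellet difference (11 features) and 0 in the other 5 comparisons. Each of those 3 counts was 0 without CON replicate 3, and they were 40, 80 and 224 without MIX replicate 1 and 89, 53 and 54 without MIX replicate 2. What follows is therefore a description of levels by mouse, with the fitted differences and their errors. The comparisons with CON share the same 3 CON mice, and those with MIX the same 3 MIX mice.

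**Figure D1:**
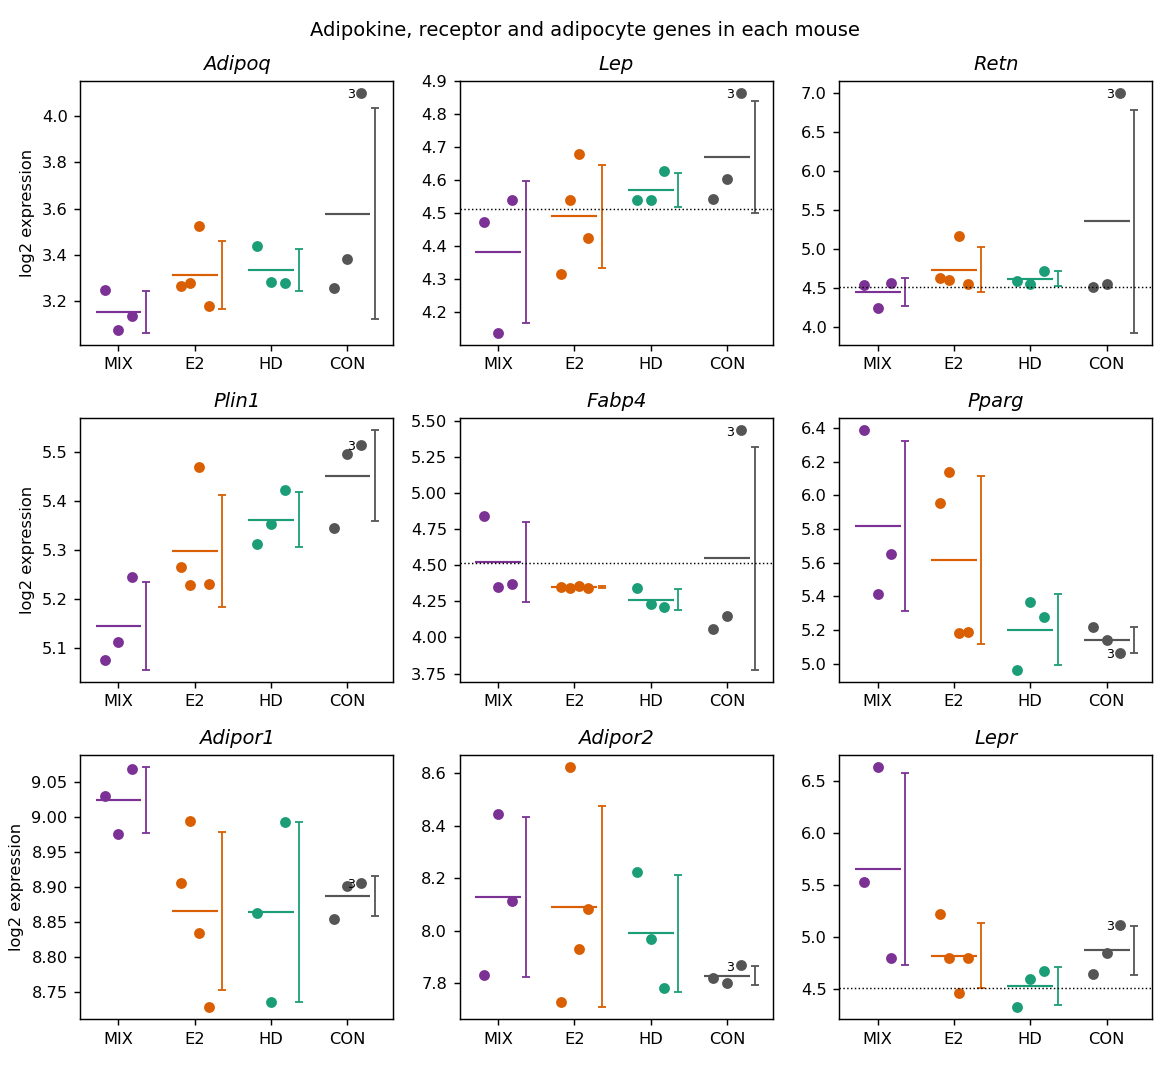
Log2 expression of the 9 measured genes in each mouse, by group (MIX, E2, HD and CON, left to right). Points are mice, horizontal lines group means, bars to the right of the points the SD, and the dotted line, where it falls within a panel, the dim-feature mark of 4.51. The 3 marks CON replicate 3, which is the highest mouse for Adipoq, Lep, Retn, Plin1 and Fabp4.

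Both adiponectin receptors were well above the dim mark in every mouse, and Adipor1 varied little between mice. Adipor1, the receptor linked most closely to AMP-activated kinase, measured 9.03, 8.98 and 9.07 in MIX, 8.91, 8.99, 8.83 and 8.73 in E2, 8.86, 8.74 and 8.99 in HD and 8.85, 8.90 and 8.91 in CON. The MIX mice were above all CON mice but overlapped E2 and HD, and the whole range over 13 mice was 0.34 log2 units. Its SD over the mice, 0.11, was smaller than that of most genes, with 26.6% of 30142 genes below it. MIX exceeded CON by 0.13 ± 0.10 (fitted log2 difference ± SE, adjusted p = 0.765, limma with Benjamini-Hochberg adjustment). The E2 and HD differences from CON were each -0.02, with 95% intervals of -0.20 to 0.16 and -0.22 to 0.17, and both turned sign when 1 mouse was left out.

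Adipor2, the receptor linked most closely to PPAR-alpha and fatty acid oxidation, measured 7.83, 8.44 and 8.11 in MIX, 7.73, 8.62, 7.93 and 8.08 in E2, 8.22, 7.97 and 7.78 in HD and 7.82, 7.80 and 7.87 in CON. The CON mice lay within 0.07 of each other, while each of the other groups held both mice at the CON level and mice well above it. Its SD over the 13 mice was 0.27, with 78.8% of genes below it. MIX exceeded CON by 0.36 ± 0.25 (adjusted p = 0.755, limma), E2 by 0.26 ± 0.21 (adjusted p = 1.00) and HD by 0.16 ± 0.22 (adjusted p = 1.00). Each of these rested in large part on 1 mouse: without MIX replicate 2 the first was 0.20, without E2 replicate 2 the second was 0.09, and without HD replicate 1 the third was 0.05.

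The windows of 250 bases before the start of these receptor genes (RefSeq, GRCm38.p6) are printed here. They differ plainly from those of Adipoq and Retn, given further on. CG dinucleotides, the sites that DNA methylation uses, are in capitals.
Adipor1, chr1:134415128-134415377, plus strand: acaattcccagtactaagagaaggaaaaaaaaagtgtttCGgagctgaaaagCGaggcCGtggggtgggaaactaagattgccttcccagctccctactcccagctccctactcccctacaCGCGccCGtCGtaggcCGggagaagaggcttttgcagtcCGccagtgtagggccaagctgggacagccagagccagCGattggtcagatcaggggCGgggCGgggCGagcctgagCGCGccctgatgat
Adipor2, chr6:119388735-119388984, minus strand: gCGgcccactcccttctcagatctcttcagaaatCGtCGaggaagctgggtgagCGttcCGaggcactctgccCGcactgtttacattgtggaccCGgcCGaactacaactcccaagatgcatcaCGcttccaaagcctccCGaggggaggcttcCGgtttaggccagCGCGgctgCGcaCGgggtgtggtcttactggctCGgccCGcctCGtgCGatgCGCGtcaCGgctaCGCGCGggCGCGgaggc
The Adipor1 window holds 15 CG pairs and the Adipor2 window 27, against a median of 6 over 32851 such windows of 27025 genes, and 72.7% and 91.4% of windows hold fewer. A second Adipor1 start has 33. The sequences describe the genes and carry no measurement from these mice.

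The fat hormone Adipoq was under the dim mark in every mouse, and Retn was close to it in all but CON replicate 3 and E2 replicate 3. Adipoq measured 3.25, 3.07 and 3.14 in MIX, 3.27, 3.28, 3.52 and 3.18 in E2, 3.44, 3.28 and 3.28 in HD and 3.25, 3.38 and 4.10 in CON. No mouse reached the mark of 4.51, and CON replicate 3 stood 0.58 above the next mouse, E2 replicate 3. The MIX mice were all below the CON mice, by 0.005 at the nearest, and below the HD mice. MIX was lower than CON by a fitted difference of -0.53 ± 0.21 (adjusted p = 0.527, limma), which became -0.03 ± 0.14 (adjusted p = 0.977, limma) without CON replicate 3. E2 and HD gave -0.25 ± 0.17 and -0.24 ± 0.18 against CON, and 0.03 and 0.06 without that mouse.

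Retn, in mice a hormone of white fat, measured 4.54, 4.24 and 4.57 in MIX, 4.63, 4.60, 5.17 and 4.55 in E2, 4.60, 4.55 and 4.73 in HD and 4.51, 4.55 and 7.003 in CON. CON replicate 3 lay 2.44 log2 units above the median of the other 12 mice, which is near the dim mark, and 1.83 above the next mouse, again E2 replicate 3. The other 2 CON mice were below every E2 mouse. The fitted difference of MIX from CON was -1.40 ± 0.53 (adjusted p = 0.513, limma), and -0.02 ± 0.25 without CON replicate 3 (adjusted p = 0.994, limma). E2 and HD gave -0.55 ± 0.43 and -0.73 ± 0.46 against CON with all mice. Without CON replicate 3 they gave 0.22 ± 0.18 and 0.11 ± 0.19.

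The animal codes in the sample titles come in a numbered and a lettered style, of unstated meaning, and the fit carries a term for it. CON replicate 3 is the only lettered CON mouse and all MIX mice are lettered, so this mouse also sets how far the term moves the MIX differences. Among lettered mice, Retn was 4.45 on average in MIX (n = 3), 4.55 in the E2 mouse, 4.73 in the HD mouse and 7.003 in the CON mouse. Among numbered mice it was 4.80 in E2 (n = 3), 4.57 in HD (n = 2) and 4.53 in CON (n = 2). Without the style term the difference of MIX from CON was -0.90 for Retn. No feature of the array was called for code style in limma.

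Over the 13 mice the Adipoq and Retn levels had a Pearson correlation of 0.950, and of 0.759 over the 12 mice without CON replicate 3. Those 12 still hold E2 replicate 3, the next highest mouse for both genes, at 3.52 and 5.17. All mice share 1 normalization, and both features are dim, so the correlation is a description only. The windows before both genes are printed as a pair, again with CG in capitals.
Adipoq, chr16:23146286-23146535, plus strand: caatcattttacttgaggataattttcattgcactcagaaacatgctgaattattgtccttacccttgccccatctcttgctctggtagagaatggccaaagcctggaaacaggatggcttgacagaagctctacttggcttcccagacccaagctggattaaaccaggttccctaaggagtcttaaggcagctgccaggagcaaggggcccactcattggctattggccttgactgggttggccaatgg
Retn, chr8:3655520-3655769, plus strand: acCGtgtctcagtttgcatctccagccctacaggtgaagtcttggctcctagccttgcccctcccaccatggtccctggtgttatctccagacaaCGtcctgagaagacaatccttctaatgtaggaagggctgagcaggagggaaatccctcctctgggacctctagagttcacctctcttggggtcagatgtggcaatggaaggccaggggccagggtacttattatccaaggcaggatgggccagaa
The Adipoq window holds 0 CG pairs and the Retn window 2, and 18.8% of windows hold fewer than 2. Plin1 has 1 and Cfd 2, while Lep has 16. The CCAAT box (letters CCAAT, either strand), found in 33.9% of all windows, occurs in the Adipoq window with first bases at -34, -27 and -7 from the start, and not in the Retn window. The hexamer AGGTCA, read by nuclear receptors and present in 14.0% of windows, is in neither.

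**Figure D2:**
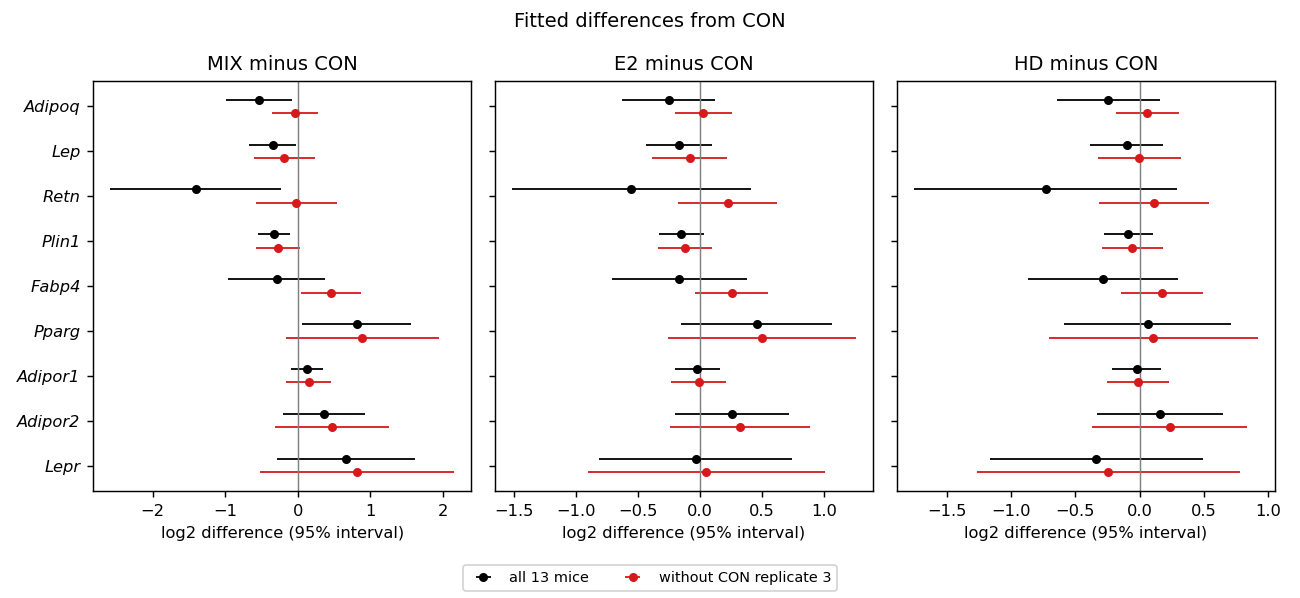
Fitted log2 differences (points) with 95% intervals (lines) of MIX, E2 and HD from CON for the 9 genes, from all 13 mice (black) and without CON replicate 3 (red). The Retn difference of MIX from CON is -1.40 in black and -0.02 in red, and the Fabp4 difference is -0.29 in black and 0.46 in red, whereas Pparg keeps 0.81 and 0.89.

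Fabp4 measured 4.84, 4.35 and 4.37 in MIX, 4.35, 4.35, 4.36 and 4.34 in E2, 4.35, 4.23 and 4.21 in HD and 4.06, 4.15 and 5.43 in CON. Only MIX replicate 1 and CON replicate 3 passed the dim mark, and the 4 E2 mice lay within an SD of 0.01. The other 2 CON mice were the lowest of all 13. MIX mice were above all HD mice, by a margin of 0.002 at the nearest. The fitted difference of MIX from CON was -0.29 ± 0.30 (adjusted p = 0.837, limma) and turned to 0.46 ± 0.18 (adjusted p = 0.829, limma) without CON replicate 3. For E2 the same values were -0.17 and 0.25, and for HD -0.28 and 0.17.

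Lep, the satiety hormone of fat, measured 4.47, 4.14 and 4.54 in MIX, 4.32, 4.54, 4.68 and 4.42 in E2, 4.54, 4.54 and 4.63 in HD and 4.54, 4.61 and 4.86 in CON. Of the 13 mice, 9 passed the dim mark of 4.51, and 4 mice carried exactly the same value, 4.5396. Only 6 passed the 95th percentile of the olfactory and vomeronasal genes on their own array. MIX mice were all below CON mice, by a margin of 0.002. The fitted difference was -0.35 ± 0.15 (adjusted p = 0.566, limma), and -0.19 ± 0.19 without CON replicate 3.

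Plin1, which guards the lipid droplet of fat cells from lipases, measured 5.08, 5.11 and 5.25 in MIX, 5.27, 5.23, 5.47 and 5.23 in E2, 5.31, 5.35 and 5.42 in HD and 5.35, 5.50 and 5.51 in CON. The MIX mice were below every HD and CON mouse, and the mean levels ran in the order MIX, E2, HD and CON. Neighbours in that order differed by 0.06 to 0.15 in their means, against SDs within groups of 0.06 to 0.11. MIX was lower than CON by a fitted difference of -0.32 ± 0.10 (adjusted p = 0.433, limma) and than HD by -0.23 ± 0.10 (adjusted p = 0.700, limma). The pellet difference averaged over the diets was -0.19 ± 0.06 (adjusted p = 0.378, limma). Unlike the Retn difference, that of Plin1 between MIX and CON changed little, to -0.27, without CON replicate 3. The MIX arrays also had medians of all features below those of all HD and CON arrays, with E2 overlapping, and the part of that in the Plin1, Lep and Adipoq differences was not tested beyond centring. With arrays centred on their medians the Plin1 difference of MIX was -0.25 ± 0.10 from CON and -0.13 ± 0.10 from HD.

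In MIX with CON, 3 of 9 genes were lower without overlap (Adipoq, Lep and Plin1) and 2 higher (Adipor1 and Pparg). Over all features 12.4% were lower and 5.52% higher without overlap in that comparison. In MIX with HD, 2 were lower (Adipoq and Plin1, where 12.4% of all features were) and 3 higher (Lepr, Fabp4 and Pparg, where 3.47% were). None of the 9 genes separated the groups in the other pairs. Over all features 3.01% were higher and 2.6% lower without overlap in E2 with CON (5.61% in either direction), 5.58% and 2.96% in HD with CON (8.54%), and 1.5% and 4.15% in MIX with E2 (5.65%). In MIX with CON and MIX with HD the either-direction shares were 17.9% and 15.9%.

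Fat that came with the scraping would also carry the other adipocyte genes, of which 27 were measured. Cidec, a lipid droplet fusion protein of fat cells, was 5.74 in CON replicate 3 and between 4.70 and 5.12 in the other 12 mice. Agpat2, which makes phosphatidic acid for fat storage, was 8.19 there and between 7.69 and 7.95 elsewhere. Sncg, a synuclein abundant in white fat, was 7.12 against 5.77 to 6.79, and Car3, a carbonic anhydrase abundant in fat and muscle, was 9.25 against 5.97 to 9.16. Gpd1, which makes glycerol phosphate for fat storage, was at 6.65 the lowest of all mice there, against 6.94 to 9.002 elsewhere. These 5 were chosen after their values were seen. Of the 27 markers, 18 lay above the median of the other 12 mice in CON replicate 3 and 8 below it.

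Over the whole list CON replicate 3 had the highest mean level, 6.95, and MIX replicate 2 the next, 6.90. CON replicate 3 was the highest mouse for 6 of 27 of these markers, MIX replicate 2 and E2 replicate 3 for 5 each, and over all genes CON replicate 3 was the highest for 6.80%. The mean level of the 27 markers was 6.61 to 6.90 in MIX, 6.67 to 6.79 in E2, 6.60 to 6.80 in HD and 6.67 to 6.95 in CON, so that all groups overlapped. Its correlation over the 13 mice was 0.579 with Fabp4, 0.543 with Retn, 0.437 with Adipoq, 0.079 with Lep, 0.043 with Plin1 and -0.081 with Pparg. Without the 2 mice farthest from each gene's median it was 0.132, -0.42, -0.388, 0.156, -0.381 and -0.265. Many of these genes serve lipid synthesis in other cells too, among them Fasn, the fatty acid synthase, at 8.93 to 9.72 in all mice, and Dgat2, which completes triglyceride synthesis, at 10.2 to 11.3. Aqp7, the glycerol channel of fat cells, was no higher in CON replicate 3 (4.84) than in the others (4.68 to 5.003). Plin4 was 5.66 there against 5.35 to 5.80 elsewhere, with only E2 replicate 3 higher. Of 13 brown fat markers, Ucp1, Cox8b and Elovl3 stayed under the dim mark in every mouse, and Kng2 in some mice. The rest passed it in every mouse, among them Cidea at 5.35 to 6.37 and Dio2 at 6.58 to 9.58. CON replicate 3 was the highest mouse for 3 of the 13 (Ppargc1a, Pank1 and Prdm16) and CON replicate 2 for 4. The mean level of the brown list was 5.39 in CON replicate 3, within the 5.29 to 5.61 of all mice.

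Against CON, 9 of the 27 markers were higher and 18 lower in MIX (median log2 difference -0.16, against -0.03 over all features), 7 and 20 in E2 (-0.07, against -0.01) and 10 and 17 in HD (-0.11, against 0.02). None passed the adjusted threshold in limma, and 5, 2 and 2 had an unadjusted p under 0.05. The smallest p-values in MIX with CON belonged to Acvr1c, an activin receptor of fat cells, and to Scd1, the stearoyl-CoA desaturase. Acvr1c averaged 4.09 ± 0.03 in MIX and 4.30 ± 0.09 in CON (SD, n = 3 each, adjusted p = 0.471, limma). Scd1 averaged 7.48 ± 0.49 in MIX and 8.41 ± 0.39 in CON (SD, n = 3 each, adjusted p = 0.472, limma). Without CON replicate 3, the highest CON mouse for both, the fitted difference was -0.13 for Acvr1c, against -0.22 with it, and -0.85 for Scd1, against -1.11.

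**Figure D3:**
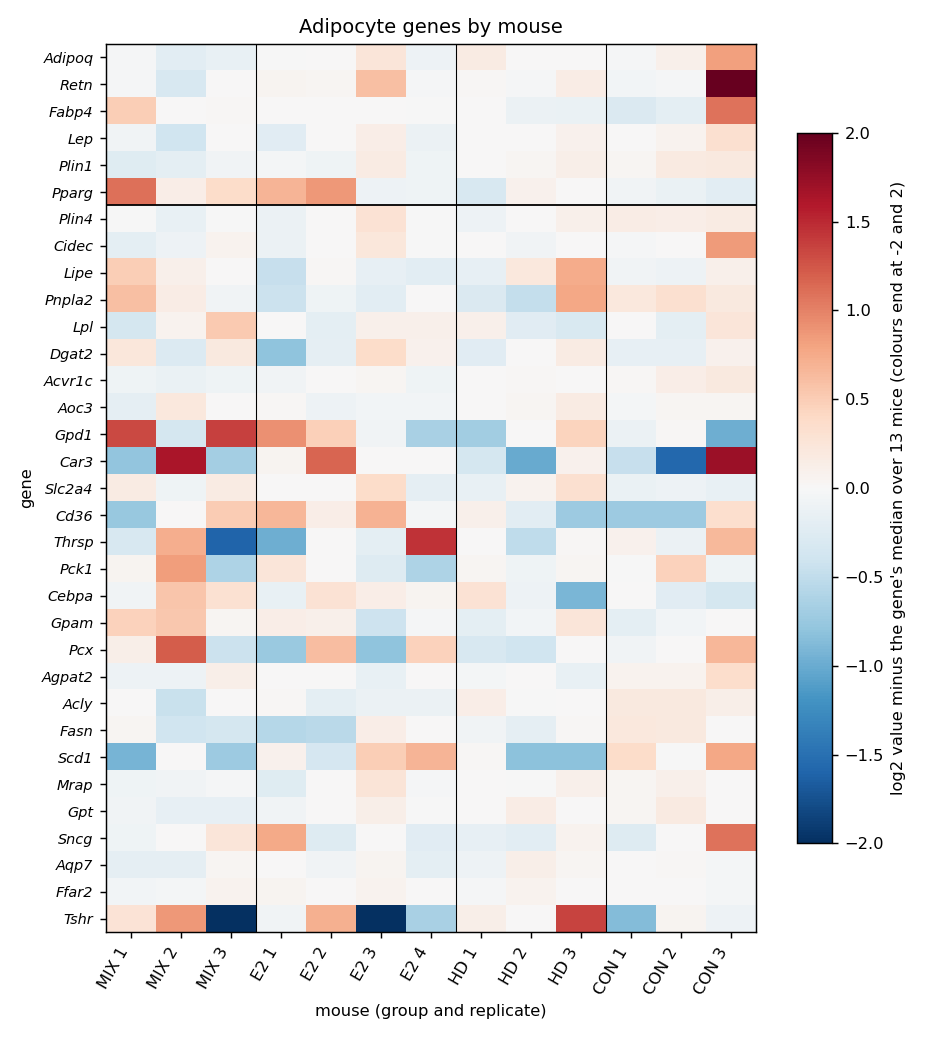
Adipocyte genes (rows) in each mouse (columns, MIX, E2, HD and CON from left to right), as log2 level minus the gene's median over 13 mice, with the 6 adipocyte genes described above the line and the 27 other markers under it. CON replicate 3 is raised in Retn, Adipoq, Fabp4, Cidec, Sncg and Car3 but not in Aqp7, Gpd1 or Pparg. Its Plin4 level is 0.16 above the median of the other 12 mice.

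The 10 genes most like Adipoq over the 13 mice began with Cyp2e1, a cytochrome P450 abundant in liver and fat (Pearson's r 0.922), and Cidec (0.913). They went on with Kctd4, Sez6l, Fzd10, Gria1, Dnah8, Fzd10os, Chst10 and Gpr12, at 0.904 down to 0.875. Several of these have their known roles outside fat, such as Gria1, a glutamate receptor subunit, and Fzd10, a Wnt receptor. Cyp2e1 was 5.70 in CON replicate 3 and 4.06 to 4.36 in the other 12 mice, and Sez6l was 9.22 against 5.73 to 7.05. Without CON replicate 3 and E2 replicate 3, the mice farthest from the Adipoq median, r dropped to 0.398 for Cyp2e1, 0.135 for Cidec and 0.746 for Gpr12 (11 mice). Retn was 1 of 18 genes that lay over 1 log2 unit higher in CON replicate 3 than in all other mice, while MIX replicate 3 had 225 such genes and CON replicates 1 and 2 had 0.

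Pparg, the regulator of fat cell formation, was highest in mice that carried the pellet, which were all of the 5 highest mice. It measured 6.39, 5.42 and 5.65 in MIX, 5.95, 6.14, 5.18 and 5.19 in E2, 4.96, 5.36 and 5.28 in HD and 5.22, 5.14 and 5.07 in CON. Every MIX mouse was above every HD and CON mouse, and 2 of 4 E2 mice were as high as MIX mice while the other 2 lay at the CON level. MIX exceeded CON by 0.81 ± 0.34 (adjusted p = 0.557, limma) and HD by 0.75 ± 0.34 (adjusted p = 0.707, limma). E2 exceeded CON by 0.46 ± 0.27 (adjusted p = 1.00, limma), and HD differed from CON by 0.06 ± 0.29. The pellet difference averaged over the diets was 0.61 ± 0.21 (adjusted p = 0.411, limma). Leaving out CON replicate 3 left the MIX difference from CON at 0.89. Without MIX replicate 1 it was 0.53, and that from HD 0.47, while E2 exceeded CON by 0.30 without E2 replicate 2. E2 exceeded CON by 0.58 within the numbered codes and by 0.12 within the lettered ones, where each group has 1 mouse.

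The correlation of Pparg with Adipoq over the 13 mice was -0.381 and with Plin1 -0.671, and CON replicate 3, the highest mouse for both, was among the lowest for Pparg. Among the means of 22 gene lists its 2 highest correlations were with fatty acid uptake and binding genes (r of 0.802, and 0.716 without the farthest pair of mice) and with squamous epithelial markers (0.750, and 0.795). Without that pair mesothelial markers (0.816), the other adipokines (0.790), lymph node and mesentery genes (0.783) and granulocyte markers (0.760) were as high, with 0.549, 0.274, 0.413 and 0.461 over all mice. The lists were picked out for these values, and the mice share 1 normalization. The squamous marker score was 6.42 to 7.69 in MIX, 5.82 to 6.80 in E2, 5.46 to 5.66 in HD and 5.33 to 5.72 in CON. Its defining keratin Krt5 was 10.002 to 12.1 in MIX and 7.20 to 8.03 in CON. The macrophage score was 6.96 to 8.13 in MIX, 6.95 to 7.53 in E2, 6.82 to 6.97 in HD and 6.20 to 6.54 in CON. The part of either cell type in the Pparg levels was not tested.

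RefSeq lists several starts for Pparg, and the farthest upstream and downstream of them are shown because they are unlike each other.
Pparg upstream start, chr6:115360894-115361143, plus strand: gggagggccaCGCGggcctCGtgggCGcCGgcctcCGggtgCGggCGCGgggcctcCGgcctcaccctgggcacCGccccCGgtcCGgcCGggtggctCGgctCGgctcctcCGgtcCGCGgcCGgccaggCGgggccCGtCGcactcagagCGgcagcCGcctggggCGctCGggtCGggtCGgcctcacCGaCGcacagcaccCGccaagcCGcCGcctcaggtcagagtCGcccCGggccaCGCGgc
Pparg downstream start, chr6:115421816-115422065, plus strand: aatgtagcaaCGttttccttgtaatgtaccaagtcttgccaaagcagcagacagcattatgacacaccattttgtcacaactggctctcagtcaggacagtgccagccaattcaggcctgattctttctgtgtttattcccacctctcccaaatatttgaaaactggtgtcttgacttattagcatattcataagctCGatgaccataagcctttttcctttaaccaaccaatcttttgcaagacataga
The upstream window holds 38 CG pairs, more than in 98.1% of windows, and the downstream window 2. The hexamer AGGTCA occurs in the upstream window and in the one between, at -28 and -9. The letters TTGCNNAA, the core read by C/EBP factors and found in 9.56% of windows, occur in the downstream window at -215 and -16, and also in the windows of Lep (-55) and Plin1 (-187 and -58). The single Pparg feature on the array does not tell the starts apart.

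Lepr varied most between mice after Retn. It measured 5.53, 6.63 and 4.80 in MIX, 5.22, 4.80, 4.46 and 4.80 in E2, 4.33, 4.59 and 4.67 in HD and 4.65, 4.85 and 5.12 in CON. The MIX mice were above all HD mice, but MIX replicate 3 lay within the E2 and CON ranges, and MIX replicate 2 was 1.10 above the next mouse. MIX exceeded HD by 1.00 ± 0.43 (adjusted p = 0.700, limma), CON by 0.66 ± 0.43 (adjusted p = 0.724, limma) and E2 by 0.70 ± 0.42 (adjusted p = 1.00, limma). Without MIX replicate 2 the difference from HD was 0.51, that from CON 0.17 and that from E2 0.21. HD had the lowest mean, 4.53 ± 0.18 (SD, n = 3), and CON 4.87 ± 0.24 (SD, n = 3), and their fitted difference of -0.34 ± 0.37 was within the error.

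MIX replicate 2 also had the highest scores for stromal (9.47), endothelial (7.46) and adipocyte progenitor markers (7.58). For endothelial markers the other MIX mice had 5.41 and 6.26, and the groups ran from 5.66 to 6.22 in E2, 5.65 to 5.96 in HD and 5.88 to 6.05 in CON. MIX replicate 1, with the second highest Lepr level, had the lowest endothelial score. The correlation of Lepr with the endothelial score was 0.682 over the 13 mice, and 0.304 without MIX replicates 1 and 2. With lymph node and mesentery genes, the highest of all lists, it was 0.697, and 0.665 without that pair. The part of any of these cells in the Lepr level was not tested. The 5 genes most like Lepr were Ddo, the D-aspartate oxidase (r 0.958), Pfdn5, a chaperone subunit (0.946), Ttc23 (0.944), Ndrg3 (0.930) and Cyp2j9 (0.924). Without MIX replicates 1 and 2 those were 0.813, 0.732, 0.566, 0.716 and 0.608.

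**Figure D4:**
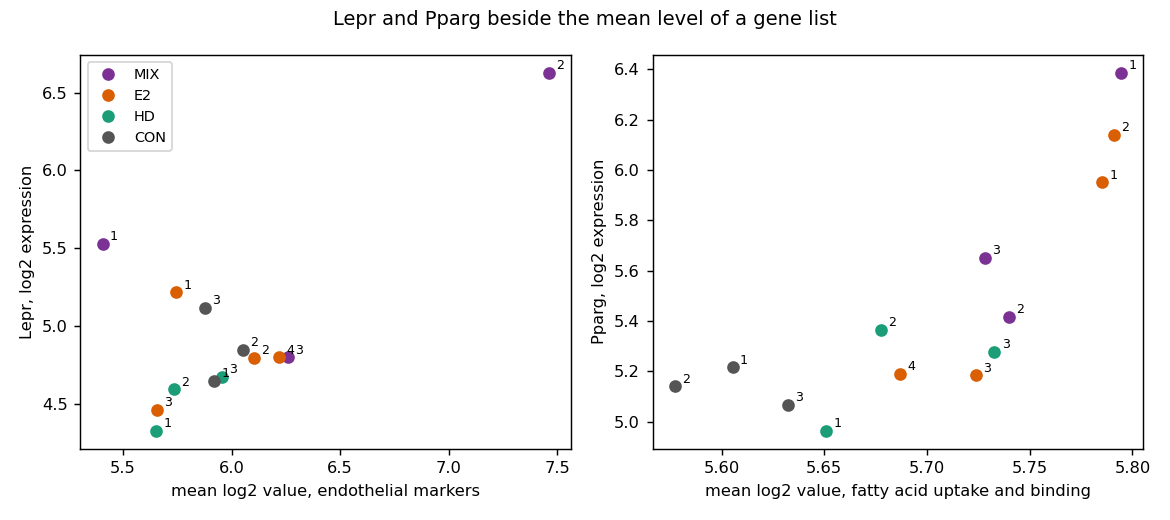
Lepr against the mean log2 level of the endothelial markers (left) and Pparg against that of the fatty acid uptake and binding genes (right), in each mouse, coloured by group with replicate numbers. On the left MIX replicate 2 lies alone at 7.46 and 6.63. On the right the 3 highest mice for Pparg, at 5.95 to 6.39, are also the 3 highest on the list.

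The wider pathways had no member past the adjusted threshold in limma in any comparison. As a background to the counts below, 42.5% of all features were higher in MIX than in CON. Among 30 measured genes of adiponectin signalling, members included, 13 were higher and 17 lower in MIX than in CON (median -0.06, 7 at an unadjusted p under 0.05). Ppargc1a, a coactivator of mitochondrial genes, averaged 6.51 ± 0.80 in MIX and 7.64 ± 0.58 in CON (SD, n = 3 each). Its fitted difference was -1.56 ± 0.41 (adjusted p = 0.368, limma). CON replicate 3 was the highest mouse, at 8.30, and without it the difference was -1.28 ± 0.55 (adjusted p = 0.829, limma). Asah2, a ceramidase, averaged 8.09 ± 0.31 in MIX and 7.41 ± 0.08 in CON (SD, n = 3 each, adjusted p = 0.449, limma). Its fitted difference was 0.555 ± 0.18, and 0.40 ± 0.24 without CON replicate 3.

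Of 23 leptin signalling genes, 14 were higher and 9 lower in MIX than in CON (median 0.07, 5 at an unadjusted p under 0.05). Irs1, an adaptor shared by insulin and leptin signals, measured 7.32, 7.62 and 6.33 in MIX, against 8.38, 8.40 and 9.98 in CON. No MIX mouse reached the lowest CON mouse, and the fitted difference was -2.49 ± 0.51 (adjusted p = 0.262, limma). CON replicate 3 was again the highest CON mouse, and without it the difference was -2.02 ± 0.68 (adjusted p = 0.829, limma). Cish, a feedback inhibitor of cytokine receptors, averaged 7.17 ± 0.32 in MIX and 7.64 ± 0.18 in CON (SD, n = 3 each, adjusted p = 0.419, limma).

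Fatty acid uptake and binding genes split evenly, with 12 of 21 higher and 9 lower in MIX than in CON (median 0.05, 3 at an unadjusted p under 0.05). Fabp5, the epidermal relative of Fabp4, measured 7.32, 6.50 and 6.53 in MIX, 7.21, 5.67, 6.34 and 5.38 in E2, 5.67, 5.40 and 5.52 in HD and 5.33, 5.48 and 4.96 in CON. MIX lay above HD and CON without overlap, and above CON by a fitted 1.87 ± 0.42 (adjusted p = 0.306, limma). Without CON replicate 3, the lowest mouse, the difference was 1.92 ± 0.59 (adjusted p = 0.829, limma). Slc27a3, an acyl-CoA synthetase, averaged 6.51 ± 0.04 in MIX and 7.44 ± 0.39 in CON (SD, n = 3 each, adjusted p = 0.371, limma).

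Lipid droplet proteins had 12 of 20 higher and 8 lower in MIX than in CON (median 0.03, 6 at an unadjusted p under 0.05). Abhd5, the activator of the fat lipase Pnpla2, averaged 7.46 ± 0.27 in MIX and 6.97 ± 0.06 in CON (SD, n = 3 each, adjusted p = 0.455, limma). Cidec averaged 4.82 ± 0.13 in MIX and 5.17 ± 0.49 in CON (SD, n = 3 each, adjusted p = 0.509, limma), with CON replicate 3 at 5.74 and the other CON mice at 4.87 and 4.90. Its fitted difference of MIX from CON was -0.54 ± 0.20, and -0.07 ± 0.15 without that mouse.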

How the data were processed

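The authors deposited log2 levels, 1 per array feature and mouse, from RMA according to the submitters' processing notes. This method equalises arrays jointly and compresses small differences of dim features. Its version and settings were not given in the sources used here. RNA (250 ng) of each mouse went to 1 array, which has no read depth, so the number of mice limits the precision. Of 65929 features, 30604 carry 1 gene symbol, 2146 several and 33179 none here, after 827 symbols were updated through their gene identifiers. A gene is represented by its feature with the highest mean.

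All features of all 13 mice entered 1 fit of lmFit and eBayes (limma 3.58.1, R 4.3.3) with 4 group coefficients and the code style of the titles, two-sided, with Benjamini-Hochberg adjustment over 65929 features and a threshold of 0.05. The residual degrees of freedom were 8. The fit was tested on simulated data. Leaving CON replicate 3 out together with E2 replicate 3 or with the code style term was added after seeing the data, and the members and gene lists were chosen with earlier results of these data known. Genes named by rule are the members, the 2 smallest unadjusted p-values of each list in the comparison described, and the closest 10 to Adipoq and 5 to Lepr by Pearson's r (numbered and predicted genes left out). Genes outside this rule were named too, such as Agpat2, Sncg, Car3, Gpd1, Aqp7, Plin4, Fasn, Dgat2 and most of the brown fat genes. Same-numbered mice of different groups did not deviate together (r from -0.26 to 0.31 over 18 pairs, 5 over 0.1). Upstream windows are RefSeq's, GRCm38.p6. Cfd, the upstream window of Fabp4 and protein sequences were not analysed here.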

Additional observations from a re-analysis of the deposited data

Results flagged for a closer look

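Among the 9 genes, the 4 E2 mice gave 2 outlying values by Dixon's ratio (95% critical value 0.829), both in E2 replicate 3. Plin1 was 5.468 in that mouse, and the nearest E2 mouse had 5.266 (ratio 0.844). Retn was 5.17, and the nearest E2 mouse had 4.632 (ratio 0.869). Chance flags about 1 in 20 groups, and 9 groups of 4 were examined. Adipoq was also highest of the E2 mice there, at 3.52. The array of that mouse had the highest median of all arrays, 4.71, against 4.54, 4.62 and 4.57 in E2 replicates 1, 2 and 4. Of the olfactory and vomeronasal genes on each mouse's own array, 98.31% lay below Plin1 in E2 replicate 3, against 98.66%, 98.49% and 98.54%. For Retn it was 97.67% against 96.16%, 95.92% and 95.63%, and for Adipoq 79.56% against 74.9%, 76.99% and 71.23%. The part of the array level in these values was not tested. Groups of 3 were not examined by that ratio.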

How the results depend on the processing

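The count of genes past the adjusted threshold was 0 of 9 in each of 181 combinations of an alternative and a comparison (smallest adjusted p 0.179, limma). Of 45 fitted differences between groups, 30 kept their sign under every alternative run and 15 did not, the cause of which was not tested. Leaving out 1 mouse at a time moved Retn against CON between -1.78 and -0.02 for MIX, -0.889 and 0.222 for E2, and -1.054 and 0.112 for HD. Adipoq ran from -0.406 to 0.027 for E2 and -0.391 to 0.061 for HD, and Fabp4 from -0.452 to 0.459 for MIX, -0.37 to 0.255 for E2 and -0.48 to 0.173 for HD. Those upper ends come without CON replicate 3, and Fabp4 in E2 was also above 0, at 0.011, without E2 replicate 4. Fabp4 in MIX ran from -0.391 to 0.286 against HD and -0.455 to 0.205 against E2. Small differences also crossed 0: Lepr E2 with CON (-0.184 to 0.068), Adipor1 E2 with CON (-0.064 to 0.062) and HD with CON (-0.117 to 0.045), Adipor2 MIX with E2 (-0.055 to 0.25) and Pparg HD with CON (-0.095 to 0.228).

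Among settings with all mice, Fabp4 in MIX against HD was 0.257 without the code style term, 0.257 with the replicate block, 0.095 with centred arrays, 0.092 with a second quantile normalization, 0.04 with array weights and 0.257 from the mice of both groups alone. Against E2 it was 0.172 without the term, 0.17 with the replicate block, 0.064 with weights and 0.172 from both groups alone, and against CON 0.02 with weights. Adipor1 in E2 with CON was 0.024 with the replicate block and 0.0 with centred arrays. With array weights Lepr in E2 with CON was 0.018 and Adipor2 in MIX with E2 was -0.093. Mice share only a number, and over all features the replicate block called 0 in MIX with CON, 3 in MIX with HD and 3 in the pellet difference, against 2, 3 and 11 with the code style term. Without either term the counts were 15, 12 and 10, and over all alternatives and left-out mice they ran from 0 to 89, 0 to 80 and 0 to 224, with the most without MIX replicate 2, 1 and 1 and with 0 in each without CON replicate 3.

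Without both CON replicate 3 and E2 replicate 3, E2 with CON was 0.191 for Lepr, 0.003 for Adipor1, 0.255 for Fabp4 and 0.048 for Retn. HD with CON was 0.046 for Adipoq, 0.173 for Fabp4 and 0.077 for Retn, and Fabp4 in MIX was 0.46 against CON, 0.286 against HD and 0.204 against E2. Without CON replicate 3 and the code style term, E2 with CON was 0.073 for Lepr, 0.244 for Fabp4 and 0.207 for Retn. HD with CON was 0.016 for Adipoq, 0.159 for Fabp4 and 0.091 for Retn, and Fabp4 in MIX was 0.416, 0.257 and 0.172 against CON, HD and E2. Within numbered codes, E2 with CON was 0.038 for Adipoq, 0.08 for Lepr, 0.034 for Adipor1, 0.246 for Fabp4 and 0.27 for Retn, and HD with CON 0.044 for Adipoq, 0.186 for Fabp4, 0.04 for Retn and -0.014 for Pparg. Within lettered codes, HD with CON was 0.087 for Adipor1 and -0.087 for Adipor2, and Fabp4 in MIX was 0.312 against HD and 0.179 against E2. A filter on dim features left 6 of 9 genes and dropped Adipoq, Lep and Fabp4. Averaging several features of a gene could not apply, since each has 1.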

Other observations

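Of 44 other adipokines and their receptors, 30 were higher and 14 lower in MIX than in CON (median 0.22, against -0.03 over all features), with none past the adjusted threshold in limma and 8 at an unadjusted p under 0.05. In E2, 28 of the 44 were higher than in CON (median 0.04), and in HD 26 (0.01). Over all features 42.5% were higher than in CON in MIX, 46.5% in E2 and 57.2% in HD. The mean level of the list in MIX replicate 1, 5.93, lay within the CON range of 5.89 to 6.002. C1qtnf7, a secreted relative of adiponectin, measured 6.60, 7.32 and 7.24 in MIX, 7.16, 6.19, 6.03 and 6.28 in E2, 6.10, 6.04 and 6.12 in HD and 5.78, 5.67 and 5.36 in CON. All mice of the other groups were above all CON mice. Over all features 5.52% were higher than CON without overlap in MIX, 3.01% in E2 and 5.58% in HD. The fitted difference of MIX from CON was 1.56 ± 0.32 (adjusted p = 0.252, limma). Without CON replicate 3, the lowest mouse, it was 1.40 ± 0.43 (adjusted p = 0.829, limma). C1qtnf1, of the same family, averaged 6.22 ± 0.35 in MIX and 5.70 ± 0.08 in CON (SD, n = 3 each, adjusted p = 0.457, limma).

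Of 18 measured transcription factors of fat cell formation, Pparg included, 8 were higher and 10 lower in MIX than in CON (median -0.09), with none past the adjusted threshold in limma and 7 at an unadjusted p under 0.05. Zfp467, a zinc finger factor, averaged 6.53 ± 0.23 in MIX and 6.85 ± 0.19 in CON (SD, n = 3 each, adjusted p = 0.359, limma), and Ppargc1a was described above. Cfd acts in the alternative complement pathway, of which 9 other genes were measured. They were higher in 7 of 9 cases in MIX (median 0.69), 7 of 9 in E2 (0.21) and 9 of 9 in HD (0.16) against CON. None of the 9 genes passed the adjusted threshold in limma, and 1, 1 and 0 had an unadjusted p under 0.05. C3ar1, the receptor of complement fragment C3a on myeloid cells, averaged 7.52 ± 1.19 in MIX and 5.90 ± 0.58 in CON (SD, n = 3 each, adjusted p = 0.512, limma). Its fitted difference was 1.70 ± 0.64, and 1.26 ± 0.87 without CON replicate 3. Cfp, or properdin, which stabilises the convertase, averaged 7.05 ± 0.81 in MIX and 6.37 ± 0.04 in CON (SD, n = 3 each, adjusted p = 0.639, limma). Beside C3ar1, 24 of 26 macrophage markers were higher in MIX than in CON, and the part of those cells in its level was not tested.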
